A study of Homo sapiens with 12 samples.

Results

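A set of 53 CCGG-dense windows of 1 kb was hardly cut by HpaII in the ascorbic acid treated samples of a renal carcinoma line labelled 786, and was cut readily in another line, 769. The windows were chosen among 10685 eligible windows of chromosomes 1 to 22, out of 431754 that held at least 1 listed CCGG site. An eligible window had a run of at least 10 reference CCGG sites between its first and last listed site and 10 or more tags from every one of the 6 MspI libraries. For each DNA sample, the ratio R was the window's share of nuclear HpaII tags divided by its share of nuclear MspI tags, so that 1 is the mean over the nuclear genome. The windows were selected on R itself: 0.2 or less in both ascorbic acid treated samples of 786 and 1 or more in the 3 samples of 769. This rule took 0.496% of the eligible windows, and 0.874% of the 6066 eligible windows at 1 or more in all samples of 769. The same rule with the lines exchanged took 32 windows, or 0.299%.

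The material was DNA of 2 clear cell renal cell carcinoma lines read by HELP-tagging, in which the DNA is digested with HpaII or MspI and a short tag beside each cut CCGG is sequenced. The groups were 786 with ascorbic acid (AA, 2 samples), the 786 control (1 sample), 769 with AA (2 samples) and the 769 control (1 sample). Each DNA sample gave 1 HpaII and 1 MspI library, 12 in all. The labels used here name no dose or time and do not say whether AA samples 1 and 2 were separate cultures, so every p-value measures only the spread between these samples, which may be technical. Library totals ran from 189704 to 12442031 tags, and the smallest was the HpaII library of the 786 control.

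HpaII and MspI recognise the same sequence, but HpaII is blocked when the inner cytosine carries 5-methylcytosine or 5-hydroxymethylcytosine, while MspI cuts in either state. A window with MspI tags and no HpaII tags is therefore read as one whose CCGG sites were present and modified, without showing which modification. A low R in 786 thus covers both. CpG-dense stretches, many of them promoters, are unmodified in most normal tissues and gain methylation at selected places in tumours and in cultured lines, and ascorbic acid is a cofactor of the TET enzymes, which oxidise 5-methylcytosine.

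No annotation of the build of the coordinates (hg19) was used. Genes were tied to windows through the spacing of CCGG sites in RefSeq promoter sequences of build GRCh38.p14, which run from 250 bases before to 50 after the annotated start. A promoter was placed where the spacing of at least 4 listed sites was found at exactly 1 place among the sites of its chromosome. Of the 53 windows, 13 overlapped a placed promoter, and 5 others had one within 1 kb. The 5 sequences that follow are promoters that lay inside a window, 3 with at most 1 HpaII tag in the 786 AA samples and 2 whose windows were at R of 1 or more in the 786 control. Each CCGG in capitals is a place where the assay could read the state of the cytosine. CCGG is its own reverse complement, so both strands hold the same sites, and overlapping matches are not possible. At least 1 CCGG occurred in 63.1% of all 35116 RefSeq promoters of the table and at least 4 in 23.7%. Positions are those of GRCh38.p14, and each sequence reads in the direction of its gene.
LRFN4, chr11:66856814-66857113 (+ strand): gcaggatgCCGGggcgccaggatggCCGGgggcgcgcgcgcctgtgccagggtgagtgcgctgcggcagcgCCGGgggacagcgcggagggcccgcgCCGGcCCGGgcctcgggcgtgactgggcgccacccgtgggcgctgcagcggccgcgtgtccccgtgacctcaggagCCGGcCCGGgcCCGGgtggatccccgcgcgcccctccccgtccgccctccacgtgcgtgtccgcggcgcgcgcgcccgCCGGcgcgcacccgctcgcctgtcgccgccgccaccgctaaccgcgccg
UTF1, chr10:133229967-133230266 (+ strand): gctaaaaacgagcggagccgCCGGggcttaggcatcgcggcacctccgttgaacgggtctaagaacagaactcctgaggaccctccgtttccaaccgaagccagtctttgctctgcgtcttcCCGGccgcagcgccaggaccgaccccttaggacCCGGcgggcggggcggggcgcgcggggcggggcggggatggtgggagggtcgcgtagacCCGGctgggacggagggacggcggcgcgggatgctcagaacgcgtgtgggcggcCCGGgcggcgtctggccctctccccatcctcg
TIAM1, chr21:31559038-31559337 (- strand): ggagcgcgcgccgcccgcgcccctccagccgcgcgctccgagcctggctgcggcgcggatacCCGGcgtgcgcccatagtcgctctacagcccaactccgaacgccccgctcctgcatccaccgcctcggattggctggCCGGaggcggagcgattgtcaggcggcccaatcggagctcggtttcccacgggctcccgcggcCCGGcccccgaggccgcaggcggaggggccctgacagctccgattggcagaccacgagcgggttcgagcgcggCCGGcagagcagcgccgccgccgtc
HMX1, chr4:8871790-8872089 (- strand): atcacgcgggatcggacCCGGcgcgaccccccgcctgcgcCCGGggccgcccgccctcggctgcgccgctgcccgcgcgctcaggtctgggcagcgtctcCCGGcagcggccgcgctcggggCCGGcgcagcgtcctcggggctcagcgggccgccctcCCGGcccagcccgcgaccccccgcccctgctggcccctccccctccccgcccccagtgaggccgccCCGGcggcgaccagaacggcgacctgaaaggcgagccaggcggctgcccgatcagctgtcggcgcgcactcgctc
EGR4, chr2:73293499-73293798 (- strand): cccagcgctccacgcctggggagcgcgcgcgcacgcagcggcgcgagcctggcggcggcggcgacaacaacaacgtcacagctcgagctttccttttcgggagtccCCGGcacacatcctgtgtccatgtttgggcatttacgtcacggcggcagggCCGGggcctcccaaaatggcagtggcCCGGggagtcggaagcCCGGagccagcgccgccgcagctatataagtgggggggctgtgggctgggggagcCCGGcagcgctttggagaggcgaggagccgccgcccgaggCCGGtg

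LRFN4 encodes a synaptic adhesion protein with leucine-rich repeats. Of the 9 CCGG sites in its promoter, 7 were listed in at least 1 library. Over these 7 sites the promoter gave 0 HpaII tags in 786 AA sample 1, 0 in 786 AA sample 2 and 0 in the 786 control, compared with 163 and 179 in the 769 AA samples and 755 in the 769 control. MspI tags over the promoter came to 9 and 27 in the 786 AA samples, 51 in the 786 control, 63 and 81 in the 769 AA samples and 81 in the 769 control. The 9 tags of 786 AA sample 1 lay at 1 site, so sample 2 carries most of the reading. The 786 control adds little, since at R of 1 only 1.92 HpaII tags were expected from it over the whole window. HpaII tags were listed at none of the 7 sites in 786 and at 6 of them in 769. The site 179 bases before the start carried the most, with 0 HpaII tags in each sample of 786, against 53 and 31 in the 769 AA samples and 404 in the 769 control. MspI gave 0 and 12 tags at that site in the 786 AA samples and 25 in the 786 control, so sample 1 does not read it. Over the whole window, chr11:66624001-66625000 (hg19), R was 0 in the 3 samples of 786, while the 769 AA samples stood at 3.31 and 4.44 and the 769 control at 6.61.

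UTF1 encodes a chromatin-associated transcription factor of undifferentiated embryonic cells. Its promoter gave 0 HpaII tags in 786 AA sample 1, 1 in sample 2 and 1 in the 786 control, compared with 277 and 160 in the 769 AA samples and 317 in the 769 control. All 5 of its CCGG sites had an HpaII tag in 769. MspI tags stood at 55 and 91 in the 786 AA samples and 105 in the 786 control, compared with 57 and 93 in the 769 AA samples and 189 in the 769 control. Summed over the promoter, the lines thus differed in HpaII tags and overlapped in MspI tags. The site 18 bases after the start carried 398 HpaII tags of 769. MspI gave 0 and 51 tags there in the 786 AA samples, so sample 1 does not read it. In sample 1, 40 of the 55 MspI tags lay 230 bases before the start. There 769 had 200 HpaII tags and both 786 AA samples had 0. In the wider 1 kb window, chr10:135043001-135044000 (hg19), R was 0.121 and 0.0614 in the 786 AA samples and 0.272 in the 786 control, compared with 4.05 and 4.36 in the 769 AA samples and 3.52 in the 769 control. The window had 19 HpaII tags in 786 AA sample 1 and 5 in sample 2, of which 1 lay in the promoter.

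TIAM1 encodes an exchange factor that activates the small GTPase Rac. Its promoter shares all 4 sites with that of the antisense gene TIAM1-AS1, so the tags belong to both. No HpaII tag was found there in the samples of 786, against 117 and 82 in the 769 AA samples and 49 in the 769 control. MspI gave 5 and 104 tags in the 786 AA samples and 72 in the 786 control, compared with 61 and 5 in the 769 AA samples and 90 in the 769 control. In 786 AA sample 1 the promoter therefore rests on few MspI tags, and AA sample 2 carries the reading. The window around it, chr21:32931001-32932000 (hg19), had R of 0.0282 and 0 in the 786 AA samples and 0 in the 786 control, while the 769 AA samples had 1.75 and 2.59 and the 769 control 5.38. TIAM2, a related Rac exchange factor on another chromosome, was also among the windows. R over its promoter was 0.135 in pooled 786 AA and 0.914 in pooled 769. All 81 MspI tags of 786 AA sample 1 lay 134 bases before the start, where pooled 769 had 1 HpaII and 1 MspI tag. All 19 HpaII tags of 786 AA lay 124 bases before the start, on 5 MspI tags. The lines were thus read mostly at different sites, and the low value of 786 AA rests on 1 of them.

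**Figure D1:**
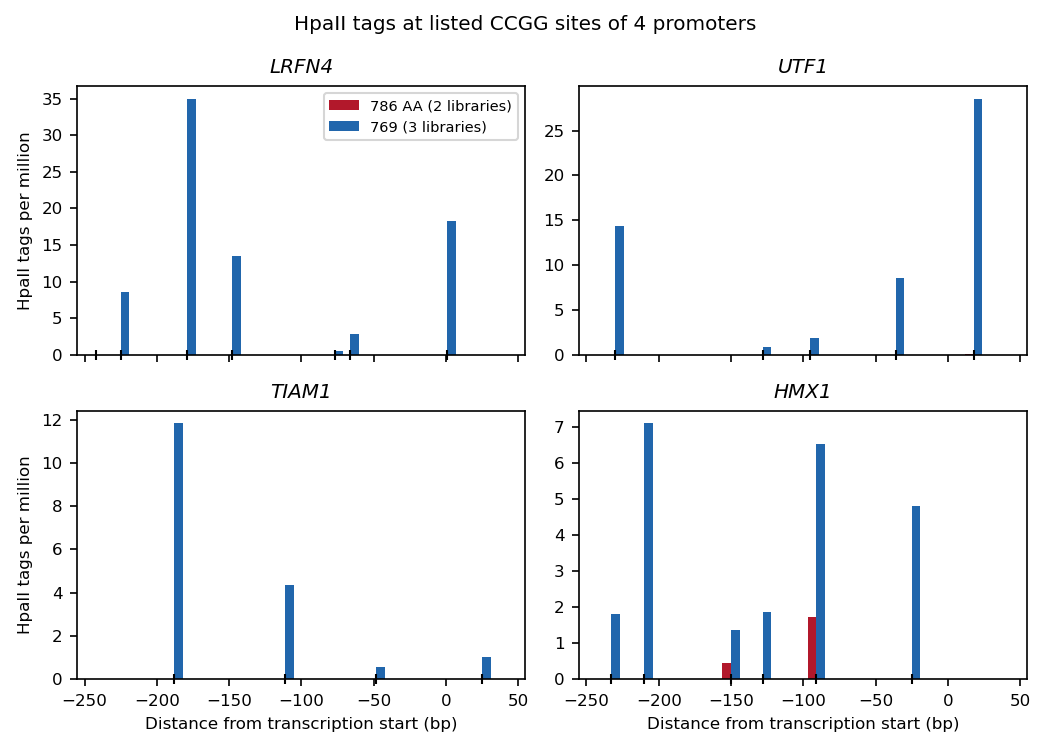
HpaII tags per 1000000 nuclear HpaII tags at each listed CCGG site of 4 promoters, against the distance from the annotated start in bases (negative is upstream). Red bars pool the 2 HpaII libraries of 786 AA and blue bars the 3 of 769, and black ticks mark the sites. LRFN4 and TIAM1 have no red bar, UTF1 rests on 1 tag in 786 AA, and HMX1 has red bars at 2 of its 6 sites.

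HMX1 and EGR4 were the 2 windows at R of 1 or more in the 786 control. HMX1, a homeobox transcription factor, had R of 0.123 and 0.193 in the 786 AA samples and 1.35 in the 786 control over its window, chr4:8873001-8874000 (hg19). R was 1.99 and 2.21 there in the 769 AA samples and 5.10 in the 769 control. The 786 control value rests on 8 tags at 2 sites. Of these, 3 lay 91 bases before the annotated start, where the 786 AA samples had 17 and 6 HpaII tags on 2 and 5 MspI tags. That site was thus cut in the AA samples of 786 too. Over the HMX1 promoter, R was 0.255 in pooled 786 AA, above the 0.2 of the rule, and 2.81 in pooled 769. EGR4, a zinc finger factor of the early growth response family, had R of 0.0821 and 0.143 in the 786 AA samples and 5.98 in the 786 control (chr2:73520001-73521000, hg19). R was 5.21 and 1.10 in the 769 AA samples and 1.97 in the 769 control. At the site 4 bases after the annotated start the 786 AA samples had 0 and 1 HpaII tags, and the 786 control had 13, which were all its tags in the window. MspI gave 0 and 14 tags at this site in the 786 AA samples and 13 in the 786 control, so only AA sample 2 can be set against the control there.

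Further promoters overlapped a window. The homeobox gene GSC2 (goosecoid homeobox 2) had R of 0.0474 in pooled 786 AA and 1.46 in pooled 769 over its promoter. GALNT17, a member of the polypeptide N-acetylgalactosaminyltransferase family, gave 0 HpaII tags in 786 AA and 242 in 769 over its promoter, on 122 and 183 MspI tags. Its window, chr7:70597001-70598000 (hg19), had the lowest upper bound of the set, with R of 0 in pooled 786 AA and an exact 95% Poisson upper limit of 0.00787. FMNL1-AS1, antisense to the formin gene FMNL1, gave 0 HpaII tags in 786 AA and 319.5 in 769, on 92 and 95 MspI tags. The 769 control gave 179 of the 319.5, all at the site 140 bases before the start, where it had 0 MspI tags. In 769 AA sample 2 the promoter had 2 MspI tags. A CCGG site lies on both strands, so the promoter's tags are not particular to the antisense gene. In its window 10.2% of tags lay at sites with counts that were not whole (tolerance 1e-06).

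PIK3R5 encodes the regulatory subunit p101 of phosphoinositide 3-kinase gamma, and its promoter had R of 0.243 in pooled 786 AA and 3.60 in pooled 769. The divergent transcript PIK3R5-DT lies in the same window, with 0.439 in pooled 786 AA and 1.75 in pooled 769. SPDYA, an activator of cyclin-dependent kinases, had 0.157 in pooled 786 AA and 2.42 in pooled 769, and all its 6 HpaII tags of 786 AA came from 1 site in sample 1. FAM163B had 0.0542 in pooled 786 AA and 2.83 in pooled 769.

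HS3ST2, a heparan sulfate 3-O-sulfotransferase, stood apart from the rest. Its promoter gave 0 HpaII tags in 786 AA and 6 in 769, on 99 and 57 MspI tags, so R was 0 and 0.153 and both lines were low over these 300 bases. The window chr16:22825001-22826000 (hg19) qualified through sites outside the promoter, with R of 0.0350 and 0.0345 in the 786 AA samples and 0 in the 786 control, compared with 1.87 and 4.38 in the 769 AA samples and 2.06 in the 769 control.

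Promoters that lay near a window without overlapping it ranged from low in 786 AA to 1 or more in both lines. SALL3, a zinc finger factor of the spalt family, began 181 bases before its window, and its promoter had R of 0.137 in pooled 786 AA and 1.74 in pooled 769. FOXE1, a forkhead factor of thyroid development, had 1.78 in pooled 786 AA and 7.02 in pooled 769 over its promoter, while the window 442 bases away had 0 and 0.0341 in the 786 AA samples and 0 in the 786 control. That FOXE1 window, chr9:100616001-100617000 (hg19), gave 2.48 and 1.55 in the 769 AA samples and 2.96 in the 769 control. ADM2, which encodes a peptide of the adrenomedullin family, was at 1 or more in both lines over its promoter, at 3.67 in pooled 786 AA and 2.70 in pooled 769. Its member window lay 978 bases away.

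The other neighbouring promoters were those of SLC35D3 and VSTM2B. SLC35D3, of the nucleotide sugar transporter family, had R of 0.719 in pooled 786 AA and 4.52 in pooled 769. VSTM2B had 0.807 in pooled 786 AA and 1.43 in pooled 769. The non-coding genes PTCSC2, LINC01896 and LOC107984851 lay beside FOXE1, SALL3 and HS3ST2. Pooled R over the PTCSC2 promoter was 1.46 in 786 AA and 2.35 in 769, and over that of LINC01896 it was 0.00846 in 786 AA and 0.691 in 769. LOC107984851 went the other way, with 0.751 in 786 AA and 0.326 in 769. Of 23 placed genes at or within 1 kb of the windows, 2 were in a gene list, SLC35D3 in the SLC family and FOXE1 in the FOX family, beside 188 of 3097 placed genes at or near windows at 1 or more in 769 (6.07%). The lists of renal tumour suppressors, Wnt antagonists, kidney factors, epithelial identity, hypoxia and TET or DNMT enzymes had none near the 53 windows, with at most 3 placed genes each near windows at 1 or more in 769, so little could be seen of them. Windows with a promoter that are not among the 12 lowest were named after their values had been seen.

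The 13 windows with an overlapping promoter were 24.5% of the 53. Of all 6066 windows at 1 or more in 769, 41.8% had one, and of the 5107 that were also at 1 or more in both 786 AA samples, 43.8%. Over all eligible windows it was 32.5%. Outside chromosome 8, whose promoters were not used here, it was 27.7% of 47 windows, beside 43.8% of the 5793 at 1 or more in 769. Requiring 3 sites in place of 4 added windows beside TSSK3, a testis-specific kinase, and CHST8, a sulfotransferase. The 15 promoters that overlapped the windows had a median GC content of 75.7% and a CpG observed over expected ratio of 0.965, against 75% and 0.907 over 3217 promoters of windows at 1 or more in 769.

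Across all 53 windows, R had a median of 0.0236 in 786 AA sample 1 (range 0 to 0.197) and 0.0128 in 786 AA sample 2 (0 to 0.193). In 769 the median was 1.94 in AA sample 1 (1.01 to 5.21), 2.21 in AA sample 2 (1.00 to 9.19) and 2.52 in the control (1.01 to 21.4). The windows were chosen by these values, which are therefore given as a description with no test. Pooled over the windows, R was 0.0448 and 0.0575 in the 786 AA samples, against 2.10 and 2.58 in the 769 AA samples and 3.09 in the 769 control. Over the 6066 windows at 1 or more in 769, the same pooled R was 2.35 and 2.66 in the 786 AA samples, against 2.96 and 3.09 in the 769 AA samples and 4.27 in the 769 control.

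**Figure D2:**
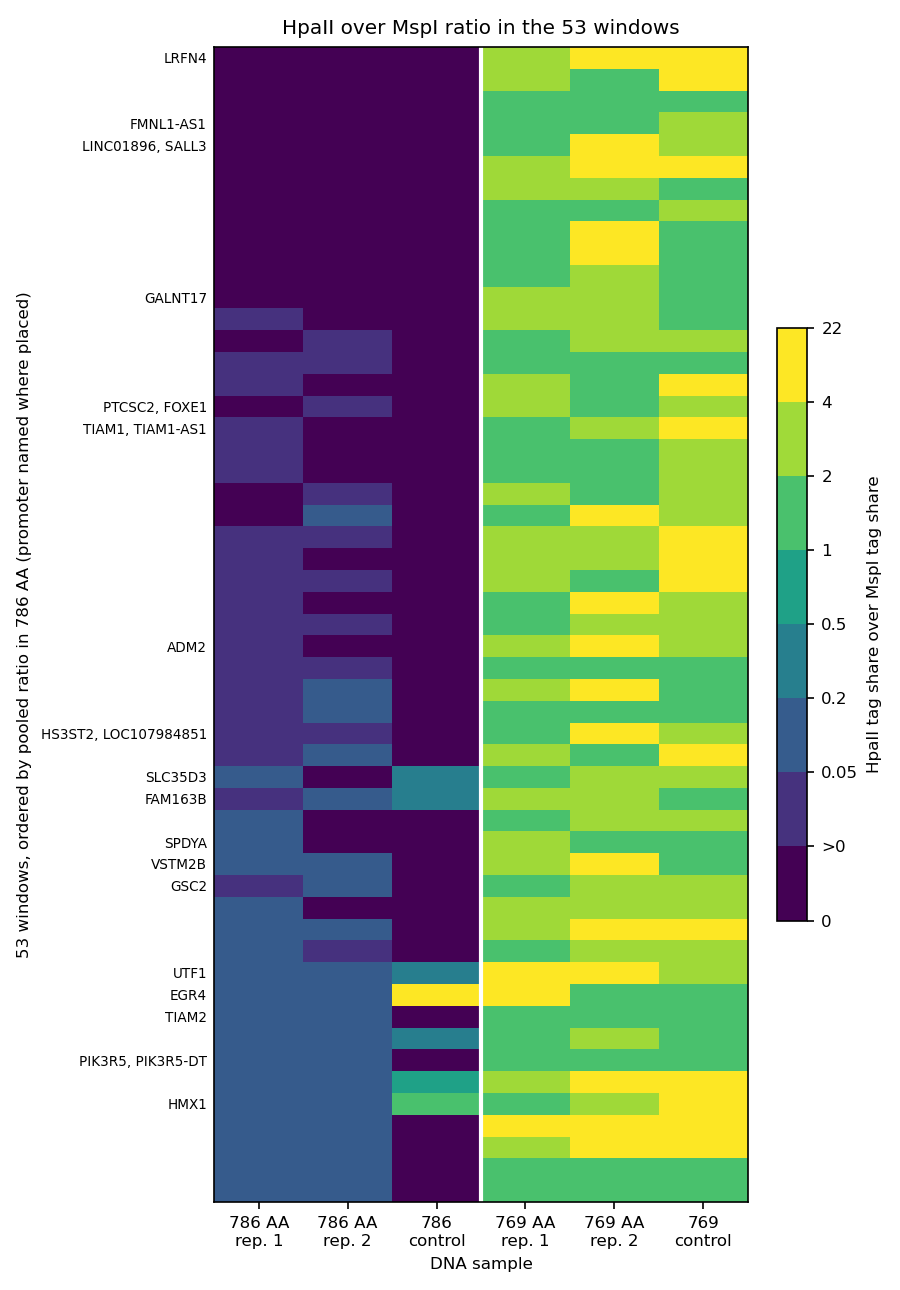
R of each of the 53 windows (down the page, ordered by pooled R in 786 AA, with placed promoters named at the left) in the 6 DNA samples (across), in colour classes given beside the panel. The 2 columns of 786 AA stay at 0.2 or less and the 3 columns of 769 at 1 or more by the rule, and the 786 control column is 0 in 46 windows.

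The HpaII library of the 786 control was the only one that the rule did not use, since its MspI library entered through the tag minimum. R was low there in most windows as well. It had 0 HpaII tags in 46 of the 53 windows, or 86.8%. The same was true of 24.8% of all windows at 1 or more in 769, of 20.8% of those also at 1 or more in both 786 AA samples, and of 39.4% of all eligible windows. R was 0.2 or less in the same 46 windows, beside 25.2%, 21.1% and 40% of those sets. Pooled, the 53 windows held 28.2 tags where 171 were expected at R of 1, which gives R of 0.165 (exact 95% Poisson interval 0.109 to 0.238, counting error only). Over the 6066 windows at 1 or more in 769, pooled R was 2.35 and 2.66 in the 786 AA samples and 2.62 in the 786 control. With 1 control there is no replicate error for this value and no test was made.

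Few single windows can be read in this library. At R of 1 a window was expected to give a median of 3.02 tags (0.443 to 8.20). A count of 0 was taken to allow up to 3 tags, a 1-sided limit. This was an R under 1 in 23 of the 46 windows without a tag. The upper limit of the 2-sided intervals given elsewhere is higher and would leave fewer. Besides EGR4 (5.98, interval 3.18 to 10.2) and HMX1 (1.35, interval 0.581 to 2.65), a window on chromosome 8, chr8:67873001-67874000 (hg19), had 2 tags and R of 0.717 (interval 0.0868 to 2.59). The other 4 windows with a tag lay between 0.242 and 0.320. Of all 786 control tags in the set, 46.2% lay in the EGR4 window. Without the 3 highest windows, a choice made after seeing the data, the pooled R was 0.0322 (interval 0.0107 to 0.0743).

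**Figure D3:**
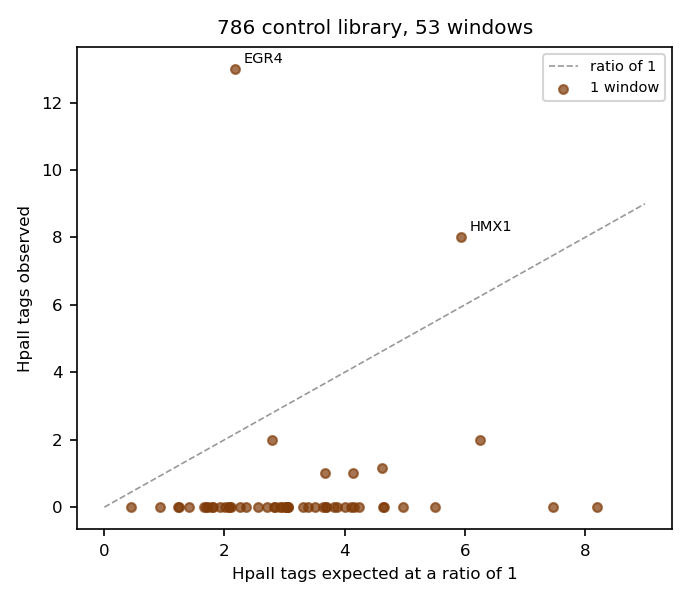
HpaII tags of the 786 control observed in each of the 53 windows (vertical) against the number expected at R of 1 from its MspI tags (horizontal), with a dashed line at R of 1. The points lie on 0 in 46 windows, and EGR4 with 13 tags and HMX1 with 8 are the 2 above the line.

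**Figure D4:**
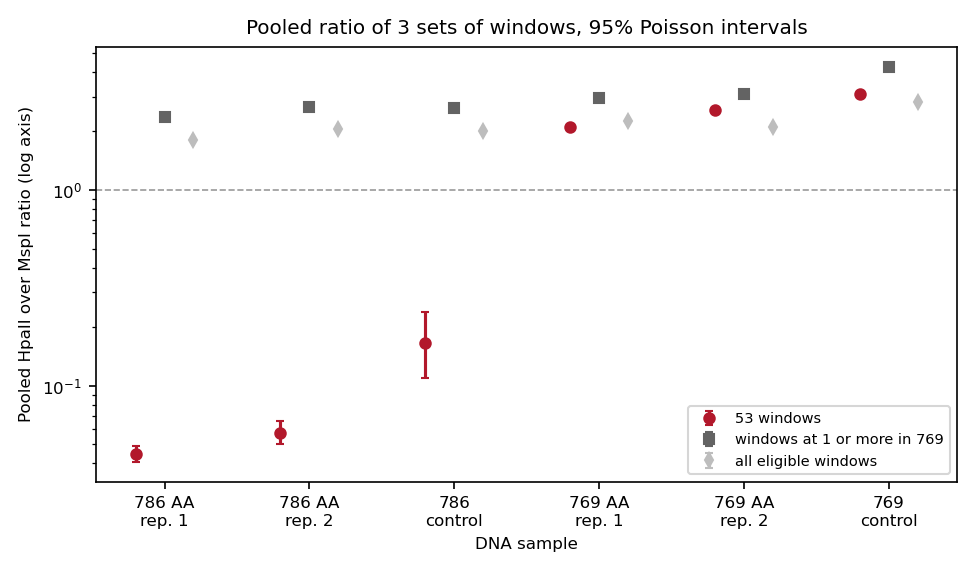
Pooled R on a log axis in each DNA sample for the 53 windows (red circles), the 6066 windows at 1 or more in 769 (dark squares) and all 10685 eligible windows (light diamonds), with exact 95% Poisson intervals that cover counting error only. The red circles stand at 0.0448, 0.0575 and 0.165 in the 3 samples of 786, where the other sets stand between 1.80 and 2.66.

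Read by site, HpaII tags were few in 786 and spread over the windows in 769. Of 660 listed CCGG sites, 117 had an HpaII tag in a 786 AA sample, 26 in both and 8 in the 786 control, while 524 had one in at least 1 sample of 769 and 169 in all 3. MspI tags were listed at 236 of these sites in both 786 AA samples and at 197 in all 3 samples of 769. At 58 sites MspI had tags in both 786 AA samples, HpaII had none there, and HpaII had tags in all 3 samples of 769. The 10 sites with most tags took 34.4% of the 646.7 HpaII tags of 786 AA. No HpaII tag at all was found in 12 windows in the 786 AA samples, and the same 12 were at 0 in the 786 control.

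The 12 windows with the lowest upper bounds in pooled 786 AA had bounds from 0.00787 to 0.0204. Among them were the windows of GALNT17, LRFN4, FMNL1-AS1 and FOXE1. The other 8 had no placed promoter. Of these, chr1:240255001-240256000 (hg19) gave 0 HpaII tags in the 3 samples of 786, against 80 and 205 in the 769 AA samples and 571.5 in the 769 control. Its R in 769 was 2.69 and 4.53 in the AA samples and 8.86 in the control. The window chr4:147576001-147577000 (hg19) gave 0 in the 3 samples of 786, against 224 and 218 in the 769 AA samples and 89 in the 769 control. The remaining 6 of the 12 began at chr7:158766001, chr1:27902001, chr17:40932001, chr7:155597001, chr2:73496001 and chr10:134598001, with at most 3 HpaII tags each in 786 AA.

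MspI tags were present in every window of both lines, as the rule required. The median window had 98 and 112 MspI tags in the 786 AA samples and 157 in the 786 control, compared with 91 and 71 in the 769 AA samples and 197 in the 769 control. The log2 ratio of the MspI share in 786 to that in 769 had a median of -0.12 (-1.73 to 1.28), beside -0.14 over the windows at 1 or more in 769. Spans of reference CCGG sites were 13 at the median (10 to 25), beside 14 in those windows. The 53 windows lay on 17 chromosomes, with 6 each on chromosomes 8 and 9 and 5 each on chromosomes 2 and 7. As shares of the windows at 1 or more in 769, these were 2.20% on chromosome 8 and 1.81% on 9. They were 1.17% on chromosome 2 and 1.32% on 7, beside 0.874% over all chromosomes. None lay on chromosomes 3, 12, 13, 14 or 20. These had only 112 to 269 windows each at 1 or more in 769, so nothing is read from the lack of members there.

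Members closer than 10 kb were counted as 1 locus, which left 52 loci. The only locus with 2 windows was on chromosome 9, at chr9:115833001-115834000 and chr9:115838001-115839000 (hg19), with a further window at chr9:115849001-115850000 just beyond 10 kb. In these 3 windows between 75.5% and 76.6% of tags lay at sites with counts that were not whole, as tags shared among alternative alignments would give, so the 3 are not independent readings and their values are uncertain. The window chr7:57484001-57485000 (hg19) had 48.1% of its tags at such sites, and 94.4% of its HpaII tags of 769 lay at 1 site. In 42 of the 53 windows each sample of 769 had HpaII tags at 3 or more sites.

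Some windows lay close to the thresholds. Just inside, the higher 786 AA value was 0.197 in chr2:233285001-233286000, 0.193 in the HMX1 window and 0.186 in the PIK3R5 window. Just outside it was 0.204, 0.209 and 0.212, in windows starting at chr14:103021001, chr11:35440001 and chr18:44336001. On the side of 769 the lowest values inside were 1.00 in chr8:687001-688000 and 1.01 in both the GALNT17 and the SLC35D3 window. Those just outside were 0.951, 0.922 and 0.902, in windows starting at chr9:115822001, chr9:140772001 and chr19:49340001.

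Many of the windows directly beside the members were low in 786 AA too. A total of 72 directly adjacent windows, beside 47 of the 53, had at least 10 MspI tags in each line. In these, pooled R had a median of 0.0877 in 786 AA and 0.575 in 769. 786 AA lay below 769 in 48 and above it in 8, and in the rest both were 0. The windows before chr9:115838001 and chr9:115849001 gave the same values, 0.206 in 786 AA and 0.0980 in 769, and both count among the 8. Neighbours of other eligible windows were not counted, so these numbers have no background. Both lines were at 0.2 or less in 21 of them. In 13, 786 AA was at 0.2 or less and 769 at 1 or more, among them the window before LRFN4 with 0 in 786 AA and 3.03 in 769, and that before the SALL3 window with 0.0529 in 786 AA and 1.10 in 769.

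Other windows had a sharp edge. In 10 adjacent windows 786 AA was at 1 or more, and 7 of these were at 1 or more in 769 too. The window before the FOXE1 member had 2.18 in 786 AA and 2.92 in 769, and that before the VSTM2B member had 4.29 in 786 AA and 1.40 in 769. The window after chr7:5594001 had 3.56 in 786 AA and 2.71 in 769. Pooled over all neighbours at 1 kb, R was 0.348 and 0.418 before the windows and 0.432 and 0.457 after them in the 786 AA samples. The 786 control had 0.689 before the windows (exact 95% Poisson interval 0.497 to 0.931) and 0.165 after them. In the same places it was 1.70 and 1.57 in 769 AA sample 1, 1.44 and 0.782 in 769 AA sample 2 and 1.47 and 1.48 in the 769 control. The neighbours share CCGG clusters with the windows, so these values are a description.

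**Figure D5:**
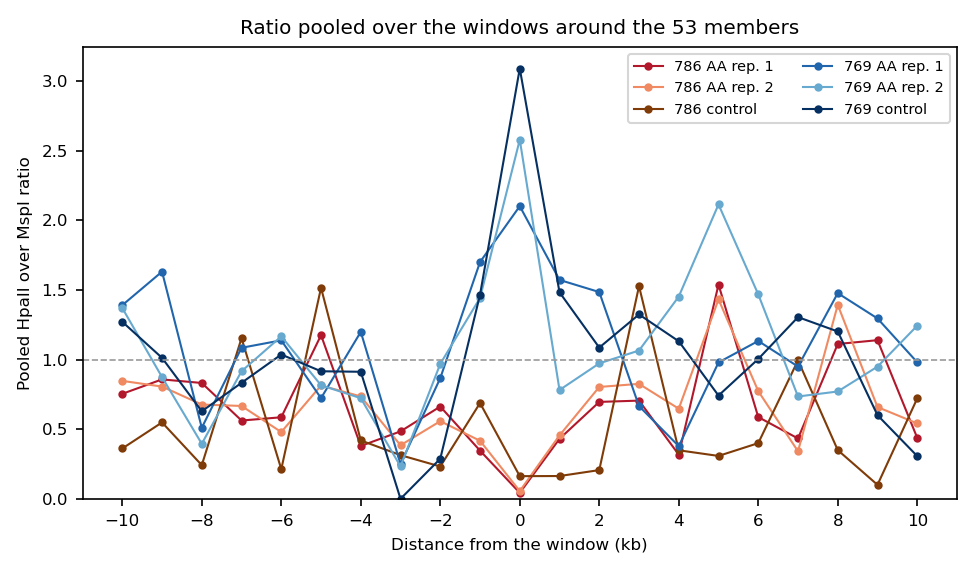
R pooled over the windows at each distance from the 53 windows (horizontal, in kb, negative before the window) in the 6 DNA samples. At 0 kb the 3 curves of 786 lie between 0.0448 and 0.165 and the 3 curves of 769 between 2.10 and 3.09, and at 10 kb to either side the 2 sets of curves lie closer together or cross.

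The second question was whether AA changed HpaII cutting in these windows. The rule used both AA samples of 786 and all samples of 769, so no AA contrast is independent of the choice of windows, and the counts that follow are a description from which nothing is read about AA. The change of HpaII relative to MspI was fitted in each line by edgeR's quasi-likelihood test over 9978 windows with at least 10 HpaII tags in all, and all 53 windows passed that filter. In 769 edgeR called none of the 53 at a Benjamini-Hochberg adjusted p under 0.05, beside 1.17% of all windows called higher and 0.0902% lower with AA. At an unadjusted p under 0.05 there was 1 of the 53, beside 14.4% of all windows. DESeq2 called 1 of the 53, beside 8.62% of all. The rule had required R of 1 or more in every sample of 769, so windows that were low in any of them had been left out.

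The 1 window was chr11:859001-860000 (hg19), with R of 2.43 and 1.49 in the 769 AA samples and 21.4 in the 769 control. Its log2 fold change was -3.16 with an edgeR adjusted p of 0.231, and DESeq2 gave -3.18 with an adjusted p of 0.0371. The size of edgeR's fold change over the square root of its F statistic, a rough stand-in for an SE, was 1.22. In this window 12.8% of tags lay at sites with counts that were not whole. The GALNT17 window had R of 3.59 and 2.15 in the 769 AA samples and 1.01 in the 769 control, and the VSTM2B window had 2.26 and 5.92 in the 769 AA samples and 1.78 in the 769 control. Neither passed in edgeR (adjusted p of 0.492 for GALNT17 and 0.505 for VSTM2B).

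Over the 53 windows the median log2 fold change with AA in 769 was -0.04, beside 0.20 over all tested windows and -0.08 over those at 1 or more in 769. With library totals the median of the 53 was -0.37 and that of all windows -0.13. Without 769 AA sample 1 the median of the 53 was 0.19 and that of all windows 0.08, so the sign changed with the setting and no direction is given. The 769 control was the highest of the 3 samples of 769 in 27 of the 53 windows, or 50.9%, beside 49.9% of the windows at 1 or more in 769. It was the lowest in 13.

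In 786 the rule fixed both AA samples at low values and left the control free, so a window with control tags could only be lower with AA. None of the 53 windows was called in edgeR's test (2 at an unadjusted p under 0.05), where 0% of all windows were called higher, 0.11% lower and 14.6% had an unadjusted p under 0.05. DESeq2 called 1, the HMX1 window, beside 2.91% of the windows for which it gave an adjusted p. For the 46 windows with 0 tags in the control no fold is given.

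The difference of the AA contrast, 786 minus 769, carries the same limit, since the rule fixed both AA samples of 786 and all samples of 769. It was called in none of the 53 windows by edgeR (1 at an unadjusted p under 0.05), beside 0% of all windows higher, 0.0401% lower and 14.8% at an unadjusted p under 0.05. DESeq2 called 1, the EGR4 window, beside 3.38%, and this call rests on the 13 control tags at 1 site. Between the AA samples of 786, sample 1 had the higher R in 22 of the 53 windows, sample 2 in 19, and 12 were at 0 in both.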

How the data were processed

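The values are expected counts of tags per CCGG site, which the authors deposited for 12 libraries without normalization, as far as the files show. Coordinates are hg19, per the submitters' processing notes, while an aligner is named in no source used here. Tags were amplified in 18 PCR cycles per the labels' protocols, with no molecular identifier described, so intervals cover counting error only. Files were joined on site number and summed in fixed windows of 1 kb. No per-sample column went unused. The members, gene lists and tests were chosen with earlier results of these data known, and 786 against 769 is described without a test because it chose the members.

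Window counts were rounded and fitted with edgeR 4.0.16 (R 4.3.3) over the 12 libraries, with terms for DNA sample, enzyme, enzyme by line and enzyme by AA in each line, TMM within each enzyme and Benjamini-Hochberg adjustment over 9978 windows. With 1 control per line, the lone control of a line is taken to vary as much as the AA samples do. The fit was tested on simulated data, 9949 windows with 200 changed by AA in 769 at the estimated dispersion of 0.204. It recovered 88% of 64-fold and 9% of 8-fold changes, and 1 of 98 calls was false. Changes were placed only in windows with a mean HpaII count at or above the median, and all windows had the same dispersion. These figures therefore do not give the recovery or false calls of the fit on the real windows. DESeq2 1.42.0, other scalings and filters, a replicate block and leaving out samples were the alternatives. Of 8093 autosomal promoters with at least 4 CCGG, 6782 were placed at 1 position, and 99.9% of these kept the RefSeq order along their chromosome.

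Named were the 12 loci with the lowest upper bound in 786 AA, the loci with most windows, the 3 windows highest in the 786 control, the 3 to each side of a threshold, the 3 with the smallest p per contrast, and windows tied to a listed gene. Python 3.11.15 with pandas 2.3.3, scipy 1.17.1 and matplotlib 3.10.9 was used for the rest.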

Additional observations from a re-analysis of the deposited data

How the results depend on the processing

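The number of windows followed the thresholds. It was 35 with R of 0.1 or less in the 786 AA samples, 114 with 0.5 or less, 11 with 2 or more in 769, 95 with 0.5 or more, and 12 with a span of at least 16 sites. Leaving out 1 sample of the rule gave 61 to 96 windows, the most without 786 AA sample 2 (96) and 786 AA sample 1 (81). With HpaII libraries thinned to the smallest that the rule uses there were 48, of which 44 were among the 53. The pooled R of the 786 control (0.165 as reported) was lower in some settings and higher in others. It was 0.0776 with windows shifted by 500 bp and 0.00976 with R of 0.1 or less in 786 AA. Without its 3 highest windows, chosen after seeing the data, it was 0.0322. It was 0.174 with at least 20 MspI tags in each MspI library and 0.172 with all but mitochondrial tags taken as nuclear. Without windows with over 80% of 769 HpaII tags at 1 site it was 0.166. Without the site with the most tags in each window it was 0.2 (exact 95% Poisson interval 0.131 to 0.293), the limit of the rule.

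Over all windows, edgeR's calls with AA in 769 (126 as reported) were 74 with library totals, 56 with TMM over all 12 libraries, 318 with no HpaII filter, 4 with at least 10 HpaII tags in each library and 108 to 433 leaving out 1 sample. In 786 (11 as reported) they were 6 with TMM over all libraries, 45 with no filter, 7 with the stricter filter and 14 to 50 leaving out 1 sample. The difference of the contrasts (4 as reported) gave 1 with TMM over all libraries, 118 with no filter and 11 to 125 leaving out 1 sample. DESeq2 called 860, 54 and 337, with 1 member called in each contrast. No member reached the stricter filter, and none of the 3 AA contrasts called a member in edgeR under the other settings run. The cause of these shifts was not tested.

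The labels number the AA samples of both lines without saying whether the numbers pair them. Deviations of same-numbered samples did not go together (r = -0.012 over 9110 windows). With 1 pair of differences this cannot show whether the samples were paired. With a replicate block the counts were 82 in 769, 13 in 786 and 5 for the difference, with 0 members called in each.

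The HpaII library of the 786 control, the shallowest of the 12, limits every reading of AA in 786. R of 0 in 1 window there does not show that the window was modified without AA.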
